A study of Mus musculus with 12 samples.

Results

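The loss of p300 in Tet2-deficient hematopoietic progenitors was followed across all expressed genes in RNA from sorted mouse LSK cells, with 3 libraries labelled p300KO_Tet2KO set against 3 labelled Tet2KO, which make up 6 of the 12 libraries of the series. LSK cells are the bone marrow cells that lack lineage markers and carry Sca-1 and c-Kit. They were sorted from C57BL/6 mice aged 8 to 10 weeks, 2 weeks after poly(I:C). By the genotypes in the study's methods, the Tet2KO mice were Ep300 fl/fl;Tet2-/- and the p300KO_Tet2KO mice Mx1-Cre;Ep300 fl/fl;Tet2-/-, so all mice of this comparison carried the floxed Ep300 alleles and received poly(I:C), while Mx1-Cre differed together with p300. The WT mice were Ep300 fl/fl and the p300KO mice Mx1-Cre;Ep300 fl/fl. The design text in the labels can also be read as giving Mx1-Cre to every group, and where Mx1-Cre differed, its effect and that of p300 cannot be told apart. Tet2 was deleted in the germline. Mx1-Cre acts in interferon-responsive cells, so p300 was deleted only where it had been active. Of the 46517 genes in the table, 17842 had enough counts to be tested. Levels are in CPM (a gene's counts per 1000000 counts of its library, scaled between libraries by TMM), and changes are log2 ratios of the libraries labelled p300KO_Tet2KO over Tet2KO with their standard error.

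p300, encoded by Ep300, is a coactivator that transcription factors bring to enhancers, where it acetylates histone H3 at lysine 27 and other proteins. Its paralog CBP, encoded by Crebbp, shares most of its domains and partners. Tet2 oxidises 5-methylcytosine in DNA, which opens the way to demethylation, and its loss in blood progenitors is a common early event in myeloid disease. The LSK gate holds long-lived stem cells and multipotent progenitors. A part of these progenitors is lymphoid-primed, which means that it has begun to transcribe genes of the B and T lineages such as Flt3, Il7r, Dntt and the Rag genes before any commitment, and the factors that drive these genes recruit p300.

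Totals ran from 18773903 to 79573664 counts per library, and groups held libraries of low and high depth alike. Xist, the RNA of the inactive X chromosome, was high and Y-linked RNA was 2.91 CPM or less in p300KO_Tet2KO replicates 1 and 3 and Tet2KO replicate 3, while p300KO_Tet2KO replicate 2 and Tet2KO replicate 2 showed the opposite. Tet2KO replicate 1 held both, and whether it was made from more than 1 animal is not given in the sources used here. Among the WT and p300KO libraries, Xist was high in p300KO replicate 3 alone (5699 CPM) and 2.96 CPM or less in the rest. Replicate 2 labelled p300KO_Tet2KO had the lowest share of mitochondrially encoded RNA (0.503%, against 1.18% to 1.53% in the other libraries). The 7 genes of the LSK gate and its subsets summed to 1814 to 2482 CPM in Tet2KO and 2063 to 2275 CPM in p300KO_Tet2KO (the sums and the sex-linked values of this paragraph are per library total, without TMM scaling), and Flt3 and Slamf1 among them were called lower, each lost in some of the fits that left out a library (for Slamf1 those without replicates 1 or 2 labelled p300KO_Tet2KO, where the adjusted p reached 0.0674). Of 14 markers of mature lineages 11 were tested and 0 were called by edgeR (1 at an unadjusted p under 0.05, 1 by DESeq2 and 0 by limma-voom), with sums of 55.4 to 94.4 CPM and 63.1 to 88.7 CPM, and Ly6g was at 0 in WT, p300KO and Tet2KO. Of 7 stromal and endothelial markers 5 were tested and 0 were called by edgeR (1 at an unadjusted p under 0.05, 0 by DESeq2 and by limma-voom), with sums of 9.60 to 17.6 CPM and 11.2 to 13.4 CPM. With a covariate for sex-linked RNA 671 of the 695 genes called in the comparison were called again, and without Tet2KO replicate 1 and p300KO_Tet2KO replicate 2 221 were. The part that the mitochondrial share had in the results was not tested. Unless a sentence says otherwise, a gene named as risen or fallen was called in each of the 6 fits that left out 1 of the 6 libraries.

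The targeted gene Ep300 (chromosome 15, 81585351 to 81652077, of mm10) stood at 349.6, 346 and 313 CPM in Tet2KO and 166, 176 and 179 CPM in the libraries labelled p300KO_Tet2KO. Every library labelled p300KO_Tet2KO was lower, by about the same amount (log2 change of -0.95 ± 0.11 SE, adjusted p of 0.000546). The counts cover the whole gene and not the floxed part alone, so the RNA that remained does not measure the share of undeleted cells. Crebbp, the paralog, stood at 403, 401 and 348 CPM in Tet2KO and 385, 319 and 385 CPM in the libraries labelled p300KO_Tet2KO, and the groups overlapped (log2 change of -0.08 ± 0.10 SE, adjusted p of 0.764). Tet2 stood at 56.6, 38.6 and 48.1 CPM in Tet2KO and 128, 101 and 145 CPM in the libraries labelled p300KO_Tet2KO. It was higher in every library of the second group (log2 change of 1.38 ± 0.16 SE, adjusted p of 0.000571), against 136, 139 and 119.9 CPM in WT and 139, 181 and 168 CPM in p300KO, so the Tet2 RNA of the libraries labelled p300KO_Tet2KO was near the WT level and did not follow the label. That group is named by its label throughout, and every direction given here is drawn between labelled libraries.

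**Figure D1:**
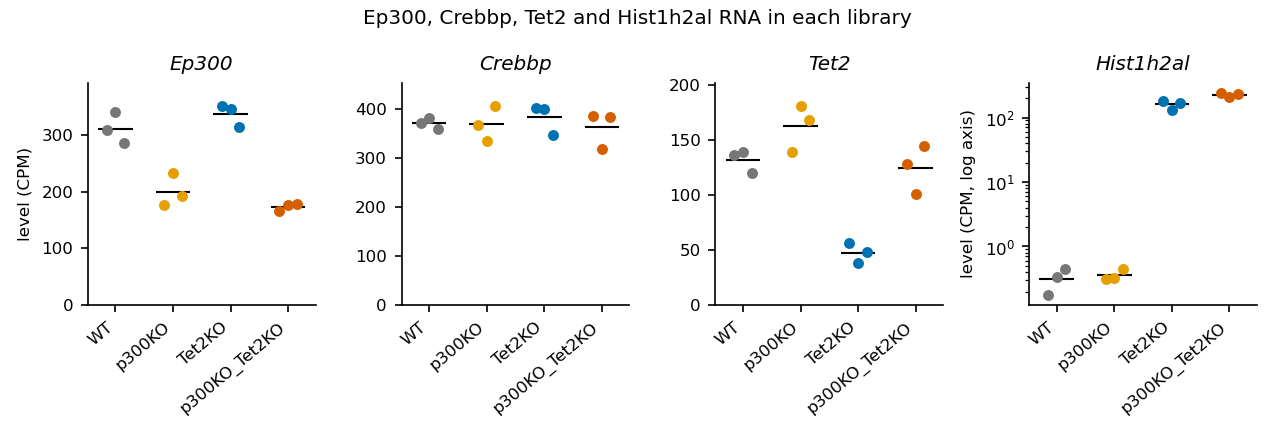
TMM-scaled CPM of Ep300, Crebbp, Tet2 and Hist1h2al in each of the 12 libraries, with 1 point per library and a bar at each group mean. Hist1h2al, picked after its values were seen, is on a log axis. Ep300 was lower in the libraries labelled p300KO_Tet2KO than in Tet2KO, Crebbp overlapped between them, and Tet2 was at 101 CPM or more in the former and 56.6 CPM or less in the latter.

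Other genes that differed between Tet2KO and WT were used to see how the libraries labelled p300KO_Tet2KO lay on the Tet2 side of their label. In Tet2KO against WT, 113 of the tested genes were called (0.633%), 86 higher and 27 lower. Xist was low in all WT libraries and high in Tet2KO replicates 1 and 3, so sex was not alike in these groups. The calls were fewer with the sex-linked covariate, as given with the alternatives below. Of the 86, 78 also had a positive change in p300KO_Tet2KO against p300KO and 40 were called higher there, with 0 called lower (edgeR, where 0.560% of all genes were called in either direction). Of the 27, 23 had a negative change there and 6 were called lower. These contrasts share no library. The counts are not of independent genes, since the 86 include pseudogenes such as Rpl34-ps1 and Pcna-ps2, named here after their values were seen. They also include Gm13691, Gm13693, Gm13694, Gm13696, Gm13697 and Gm13698, which lie together on chromosome 2. These all had the same mean in Tet2KO (12.9 CPM) and the same mean in p300KO_Tet2KO (17.8 CPM). The 113 calls went to 36 without WT replicate 1, 38 without WT replicate 2, 42 without Tet2KO replicate 1 and 205 without Tet2KO replicate 2, and the 100 calls of the other contrast to 39 and 45 without p300KO replicates 2 and 3 and 58 and 52 without p300KO_Tet2KO replicates 2 and 3. A replication-dependent histone gene, Hist1h2al, picked after its values were seen, was at 0.176, 0.332 and 0.446 CPM in WT, 0.310, 0.321 and 0.453 CPM in p300KO, 178, 130.1 and 169 CPM in Tet2KO and 243, 207 and 229.9 CPM in p300KO_Tet2KO. Both groups with a Tet2KO label were high and both others were near 0, although histone genes have near-identical copies and the assignment of reads among them is uncertain. Of the 228 genes tested within 20 Mb of Tet2 on chromosome 3, a window also picked after values were seen, 8 were called in Tet2KO against WT (3.51%), and 6 of these were called with the same sign in p300KO_Tet2KO against p300KO. By these genes the libraries labelled p300KO_Tet2KO resembled Tet2KO, while by Tet2 RNA they did not.

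Genes that fell outnumbered genes that rose. At a Benjamini-Hochberg adjusted p under 0.05 in edgeR's quasi-likelihood test, 695 of 17842 genes were called (3.90%), 515 lower (2.89%) and 180 higher (1.01%) in the libraries labelled p300KO_Tet2KO. The lower genes also changed further, with a median log2 change of -1.16 against 0.75 for the higher genes and 0.02 for all genes tested. At least a 2-fold change was seen for 289 of the lower and 68 of the higher genes, and at least an 8-fold change for 42 and 6. The libraries of the groups did not overlap for 508 of the lower genes (98.6%) and 177 of the higher (98.3%), against 19.7% of all tested genes. Lack of overlap thus came with nearly every call. The lead of lower genes was widest among genes of high CPM. At 100 CPM and above, 93 of 2328 genes were called lower (3.99%) and 9 higher (0.387%), whereas from 10 to 100 CPM the counts were 224 and 99 of 7677. The size of the change went the other way, since the median change of the lower genes was -2.99 under 1 CPM and -0.56 at 100 CPM and above. Called lower genes spanned a median of 37.9 kb of genome and called higher genes 26.5 kb, against 15.8 kb for all tested genes. The calls depended on the libraries included, since 229 of the lower and 37 of the higher genes were called in all 6 fits that left out a library, and the total went from 387 without p300KO_Tet2KO replicate 3 to 767 without Tet2KO replicate 3. It was 391 without p300KO_Tet2KO replicate 1, 407 without Tet2KO replicate 2, 426 without Tet2KO replicate 1 and 235 without Tet2KO replicate 1 and p300KO_Tet2KO replicate 2 together.

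**Figure D2:**
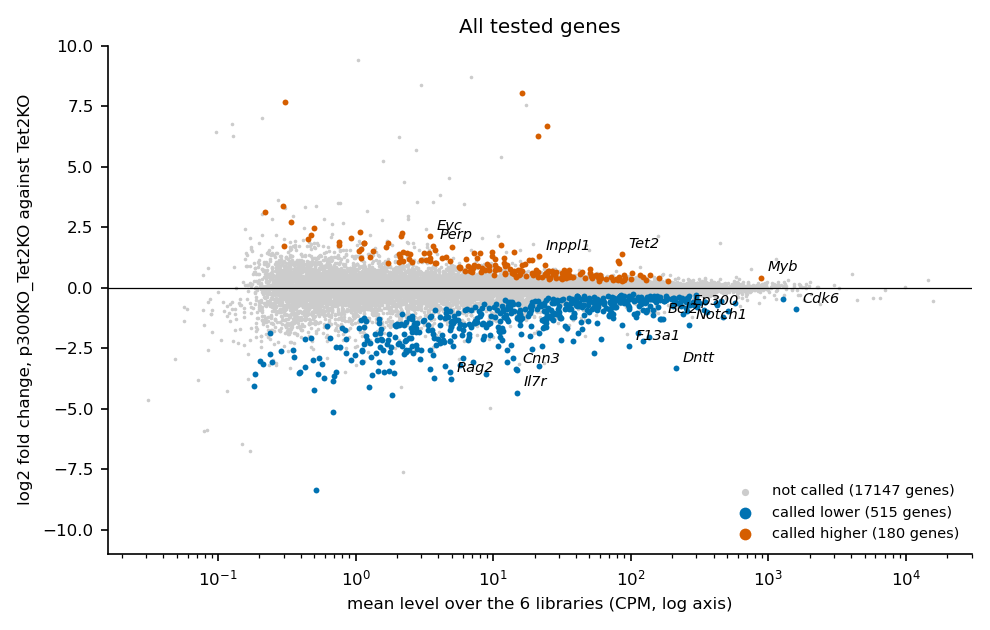
Log2 change of the libraries labelled p300KO_Tet2KO over Tet2KO against the mean level (log axis, CPM) for all 17842 genes tested, with called genes coloured by direction. There are 515 called lower and 180 called higher, with median log2 changes of -1.16 and 0.75.

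Genes of lymphoid priming held the largest share of lower calls among the 26 lists. The lists were chosen with earlier results of these data known, so their shares and ranking describe the data and do not test them. Of 23 tested genes that mark lymphoid-primed progenitors, 16 were called lower (69.6%, against 2.89% of all genes) and 0 higher, with a median log2 change of -0.99 (0.02 for all genes). In bulk RNA, fewer lymphoid-primed cells within the gate and less of these RNAs per cell cannot be told apart. Il7r (chromosome 15, 9505788 to 9530176), the chain of the interleukin-7 receptor that early B and T progenitors need, stood at 33.6, 31.3 and 20.1 CPM in Tet2KO and 1.51, 1.33 and 1.43 CPM in the libraries labelled p300KO_Tet2KO. The second group was low in all 3 libraries and far from the first (log2 change of -4.33 ± 0.28 SE, adjusted p of 7.15e-06). Dntt (chromosome 19, 41029275 to 41059525), the terminal transferase that adds bases at V(D)J junctions, stood at 450.2, 522 and 194 CPM in Tet2KO and 18.8, 47.6 and 49.1 CPM in the libraries labelled p300KO_Tet2KO. Tet2KO replicate 3 was the lowest of its group but still well above all 3 libraries of the other (log2 change of -3.33 ± 0.43 SE, adjusted p of 0.00108). The genes of the V(D)J recombinase moved alike. Rag1 stood at 28.03, 35.9 and 10.1 CPM in Tet2KO and 1.51, 5.10 and 2.74 CPM in the libraries labelled p300KO_Tet2KO, and Rag2 at 9.83, 11.5 and 6.02 CPM in Tet2KO and 0.313, 0.517 and 1.23 CPM in the libraries labelled p300KO_Tet2KO. Neither overlapped between groups (log2 changes of -2.91 and -3.75, adjusted p of 0.00542 and 0.000573), and Tet2KO replicate 3 was again the lowest of its group in both. Arpp21, a regulator of RNA that early lymphoid cells express, stood at 32.4, 32.1 and 16.8 CPM in Tet2KO and 0.888, 3.06 and 3.56 CPM in the libraries labelled p300KO_Tet2KO (log2 change of -3.39 ± 0.53 SE, adjusted p of 0.00374). Ccr7, a chemokine receptor of lymphoid cells, fell, with a log2 change of -2.65 (adjusted p of 0.00211).

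Other genes of the list fell by differing amounts. Notch1, the receptor whose signal starts T cell development, stood at 475, 423 and 289.8 CPM in Tet2KO and 104, 148 and 155 CPM in the libraries labelled p300KO_Tet2KO. All 3 libraries labelled p300KO_Tet2KO were lower (log2 change of -1.55 ± 0.19 SE, adjusted p of 0.000669). Satb1, a chromatin organiser of lymphoid progenitors, stood at 381, 359 and 238 CPM in Tet2KO and 126, 159 and 177 CPM in the libraries labelled p300KO_Tet2KO (log2 change of -1.08 ± 0.17 SE, adjusted p of 0.00380). Ikzf1, the Ikaros factor that opens lymphoid genes in multipotent progenitors, stood at 418, 449 and 388 CPM in Tet2KO and 295, 267 and 269.9 CPM in the libraries labelled p300KO_Tet2KO, a modest difference with narrow spread (log2 change of -0.59 ± 0.09 SE, adjusted p of 0.00319). Flt3, the receptor that defines the lymphoid-primed subset of LSK cells, stood at 521, 525 and 290.2 CPM in Tet2KO and 199, 267 and 236 CPM in the libraries labelled p300KO_Tet2KO. The groups did not overlap (log2 change of -0.93 ± 0.19 SE, adjusted p of 0.0149), but Tet2KO replicate 3 lay near p300KO_Tet2KO replicate 2, and the call was lost without Tet2KO replicate 1 or 2 or p300KO_Tet2KO replicate 1 or 3, where the adjusted p reached 0.0678. Cnn3, a calponin that binds actin, stood at 26.9, 26.5 and 26.7 CPM in Tet2KO and 2.14, 2.91 and 2.49 CPM in the libraries labelled p300KO_Tet2KO. The libraries of each group lay close together (log2 change of -3.37 ± 0.21 SE, adjusted p of 7.15e-06). Selplg, a ligand of selectins, fell, with a log2 change of -0.65 (adjusted p of 0.00274). Of the 16 called genes, 13 were called in all 6 fits without a library and 12 in the fit without Tet2KO replicate 1 and p300KO_Tet2KO replicate 2.

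**Figure D3:**
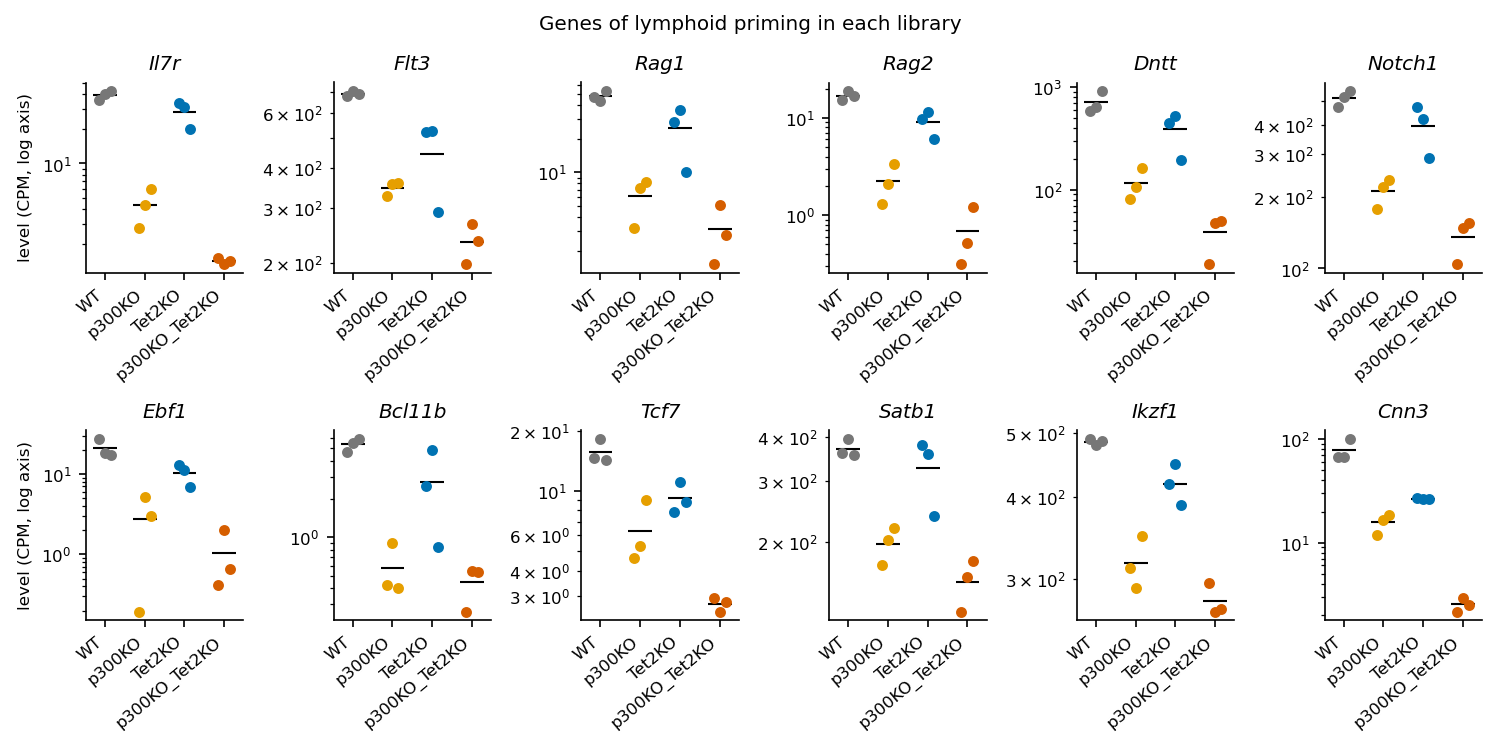
CPM (log axis) of lymphoid genes in each of the 12 libraries of the 4 groups, with 1 point per library and a bar at each group mean. For Il7r the Tet2KO libraries sit between 20.1 and 33.6 CPM and the p300KO_Tet2KO libraries between 1.33 and 1.51 CPM, and Tet2KO replicate 3 is the lowest of its group for Dntt, Rag1 and Rag2.

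Genes of B cell specification fell in part. Of 28 tested, 9 were called lower (32.1%) and 0 higher, with a median log2 change of -0.85, and 6 of the 9 were called in all fits without a library. Cd93, a surface protein of early B progenitors that stem cells also carry, stood at 677, 660.5 and 703 CPM in Tet2KO and 367, 322 and 346 CPM in the libraries labelled p300KO_Tet2KO (log2 change of -0.98 ± 0.12 SE, adjusted p of 0.000587). Aff3, a nuclear protein of early B cells, stood at 394, 416 and 347 CPM in Tet2KO and 245, 201 and 230.02 CPM in the libraries labelled p300KO_Tet2KO (log2 change of -0.78 ± 0.11 SE, adjusted p of 0.00211). Bach2, Cd24a and Pou2f2 also fell, with changes of -1.12 (adjusted p of 0.000669), -1.11 (adjusted p of 0.000301) and -0.93 (adjusted p of 0.00486). Bach2 is a transcriptional repressor that B cells express, Cd24a a surface protein of early B cells and Pou2f2 the octamer factor Oct-2. The genes that define the lineage had few counts. Ebf1, the factor that specifies B cells, stood at 12.9, 11.3 and 6.95 CPM in Tet2KO and 0.418, 2.01 and 0.654 CPM in the libraries labelled p300KO_Tet2KO. The call (log2 change of -3.18 ± 0.74 SE, adjusted p of 0.0318) was lost without Tet2KO replicate 1 or 2 or p300KO_Tet2KO replicate 1 or 3, with an adjusted p of up to 0.118. Pax5, the commitment factor, had a change of -1.94 (adjusted p of 0.227).

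The T and innate lymphoid genes gave 9 called lower of 26 tested (34.6%), 0 higher and a median of -0.62, but only 3 of the 9 were called in every fit without a library and 2 in the fit without Tet2KO replicate 1 and p300KO_Tet2KO replicate 2. Ets1, a factor of early B and T development, stood at 43.2, 46.6 and 36.99 CPM in Tet2KO and 16.1, 20.5 and 18.9 CPM in the libraries labelled p300KO_Tet2KO. The groups were far apart for so modest a change (log2 change of -1.19 ± 0.13 SE, adjusted p of 0.000326). Tcf7, the factor TCF-1 that turns on the T cell program, stood at 7.84, 11.1 and 8.82 CPM in Tet2KO and 2.92, 2.50 and 2.78 CPM in the libraries labelled p300KO_Tet2KO. Its libraries varied little within each group (log2 change of -1.77 ± 0.25 SE, adjusted p of 0.00205). Tox, a nuclear factor of T and innate lymphoid development, fell, with a change of -1.62 (adjusted p of 0.00721). Bcl11b, which commits cells to the T lineage, stood at 2.53, 4.84 and 0.842 CPM in Tet2KO and 0.261, 0.547 and 0.531 CPM in the libraries labelled p300KO_Tet2KO, with Tet2KO replicate 3 close to the other group. Its call (log2 change of -2.57, adjusted p of 0.0198) was lost without Tet2KO replicate 2 and without any of the 3 libraries labelled p300KO_Tet2KO, with an adjusted p of up to 0.0749. Gata3, needed by early T cells, had a change of -0.60 (adjusted p of 0.0963).

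Sequence just before the start of transcription was compared for the called genes. In RefSeq windows of 300 bases around the first listed start (GRCm38.p6, 10948 tested genes matched), the median ratio of observed to expected CpG was 0.74 for all genes, 0.62 for 335 lower genes and 0.67 for 136 higher genes. Windows with a ratio under 0.4 made up 19.4%, 34.0% and 25.7%. The contrast varied with level. Below 1 CPM the shares were 46.0% of all, 58.3% of 12 lower and 62.5% of 8 higher genes. At 1 to 10 CPM the shares were 33.6% of all, 37.6% of lower and 29.5% of higher genes, at 10 to 100 CPM they were 11.1%, 34.2% and 20.8%, and at 100 CPM and above 9.94% of all and 25.0% of 72 lower genes, and 14.3% of 7 higher genes. The Runx core TGTGGT, searched on both strands like all motifs, was found in 13.1% of all windows, 17.3% of lower and 11.8% of higher ones, the Myb site CAACNG in 33.1%, 30.7% and 28.7%, the E-box CAGNTG in 44.4%, 51.3% and 50.7% and the Ets site GGAAGT in 28.5%, 23.3% and 13.2%. These shares are descriptions without a test. The 250 bases before the start are shown for 5 lower genes, from CpG-poor to CpG-rich, with every CpG in capitals, each written 5′ to 3′ on the strand of its gene. They are Dntt at chr19:41029025-41029274 (plus strand), Rag2 at chr2:101624462-101624711 (plus), Rag1 at chr2:101649533-101649782 (minus), Il6st, the receptor subunit gp130, at chr13:112463820-112464069 (plus) and Bcl2, a survival protein, at chr1:106714291-106714540 (minus).
Dntt: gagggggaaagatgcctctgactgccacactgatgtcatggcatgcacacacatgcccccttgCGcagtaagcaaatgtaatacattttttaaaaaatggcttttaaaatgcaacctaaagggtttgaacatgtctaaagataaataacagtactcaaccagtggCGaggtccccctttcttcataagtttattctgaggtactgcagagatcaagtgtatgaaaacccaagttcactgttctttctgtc
Rag2: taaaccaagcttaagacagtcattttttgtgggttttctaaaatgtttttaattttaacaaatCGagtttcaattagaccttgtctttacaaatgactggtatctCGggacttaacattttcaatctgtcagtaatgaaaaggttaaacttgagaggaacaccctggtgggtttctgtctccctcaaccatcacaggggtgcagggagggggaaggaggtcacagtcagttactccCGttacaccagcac
Rag1: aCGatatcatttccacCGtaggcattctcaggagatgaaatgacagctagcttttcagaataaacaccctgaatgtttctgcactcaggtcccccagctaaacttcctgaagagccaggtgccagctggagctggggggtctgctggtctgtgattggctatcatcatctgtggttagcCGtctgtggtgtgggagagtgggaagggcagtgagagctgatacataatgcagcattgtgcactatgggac
Il6st: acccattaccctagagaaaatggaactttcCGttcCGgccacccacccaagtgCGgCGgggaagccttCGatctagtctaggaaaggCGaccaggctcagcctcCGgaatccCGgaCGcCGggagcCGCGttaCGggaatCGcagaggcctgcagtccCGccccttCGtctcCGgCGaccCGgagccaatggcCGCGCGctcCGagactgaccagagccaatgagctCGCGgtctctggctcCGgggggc
Bcl2: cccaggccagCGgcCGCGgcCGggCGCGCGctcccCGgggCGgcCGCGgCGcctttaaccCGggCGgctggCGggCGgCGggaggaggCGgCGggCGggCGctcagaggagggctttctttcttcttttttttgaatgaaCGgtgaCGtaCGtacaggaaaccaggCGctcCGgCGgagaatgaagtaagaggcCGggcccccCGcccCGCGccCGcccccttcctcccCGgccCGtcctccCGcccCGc
The Dntt sequence holds 2 CpG, those of Rag2 and Rag1 hold 3 each, and those of Il6st and Bcl2 hold 26 and 36.

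Called genes lay beside called genes of the same direction in a larger share than all neighbouring pairs, a comparison made without a test. Where the next tested gene on the chromosome did not overlap, it was also called lower for 61 of 395 lower genes (15.4%), against 3.26% of all neighbouring pairs. For higher genes the next gene was also higher for 8 of 143 (5.59%, against 1.15%). Only adjacent genes were checked for overlap, so some lower pairs are transcripts that both lie within a larger called gene such as Satb1. With protein-coding genes alone the shares were 11.1% against 3.50% and 5.37% against 1.301%. The recombinase genes Rag2 and Rag1 lie 5.75 kb apart. The receptor genes Il6st and Il31ra lie 9.81 kb apart, Il18r1 and Il18rap 14.5 kb, and Ifnar2 and Il10rb 0.575 kb. Among higher genes, Evc and Evc2 lie 1.61 kb apart and Arfgef3 and Perp 101 kb. The call of Il18r1 was lost without Tet2KO replicate 2 or p300KO_Tet2KO replicate 2 or 3 (where the adjusted p reached 0.0786), and that of Evc2 without Tet2KO replicate 2 or p300KO_Tet2KO replicate 1 or 3 (where it reached 0.0636).

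Receptors for cytokines were lower across several families. Of 44 tested, 16 were called lower (36.4%) and 0 higher, with a median log2 change of -0.35, and 10 of the 16 were called in all fits without a library. Il31ra, a gp130-like receptor chain, stood at 7.23, 6.17 and 13.2 CPM in Tet2KO and 1.31, 0.620 and 0.572 CPM in the libraries labelled p300KO_Tet2KO, with no overlap (log2 change of -3.46 ± 0.41 SE, adjusted p of 0.000587). Its neighbour Il6st, which encodes the gp130 chain shared by the interleukin-6 family, stood at 227, 189 and 279 CPM in Tet2KO and 93.6, 77.2 and 110.4 CPM in the libraries labelled p300KO_Tet2KO (log2 change of -1.31 ± 0.17 SE, adjusted p of 0.00108). The partner chains Il6ra, for interleukin-6, and Lifr, for leukemia inhibitory factor, also fell. Il6ra stood at 108, 72.8 and 95.4 CPM in Tet2KO and 56.3, 58.1 and 52.4 CPM in the libraries labelled p300KO_Tet2KO (log2 change of -0.72 at an adjusted p of 0.00939) and Lifr at 8.22, 5.80 and 8.24 CPM in Tet2KO and 1.93, 2.95 and 2.49 CPM in the libraries labelled p300KO_Tet2KO (-1.57 at an adjusted p of 0.00502). Il18rap, the accessory chain of the interleukin-18 receptor, stood at 87.8, 116 and 45.6 CPM in Tet2KO and 33.99, 25.97 and 32.2 CPM in the libraries labelled p300KO_Tet2KO, with Tet2KO replicate 3 nearest to the other group (-1.45 at an adjusted p of 0.00759). Receptors of the interferon and interleukin-10 families fell as well. Of these, Ifngr1 changed by -0.75 (adjusted p of 0.00227), Ifnar2 by -0.49 (adjusted p of 0.00108), Il10rb by -0.53 (adjusted p of 0.00549) and Il10ra by -1.11 (adjusted p of 0.00233). Csf1r, the receptor of monocyte growth, was called lower with a change of -1.10 (adjusted p of 0.0259), a call lost without Tet2KO replicate 1 or 3 or p300KO_Tet2KO replicate 2 or 3, with an adjusted p of up to 0.102. Kit, the stem cell factor receptor, and Csf3r, the receptor of granulocyte growth, were not called, with changes of 0.12 (adjusted p of 0.712) and 0.07 (adjusted p of 0.761).

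Genes of adhesion and homing included 11 called lower of 33 tested (33.3%), 0 higher, with a median of -0.21, and 8 of the 11 in all fits without a library. Cxcr4, the receptor that holds progenitors in the marrow, stood at 158, 154 and 170.3 CPM in Tet2KO and 84.9, 78.5 and 89.4 CPM in the libraries labelled p300KO_Tet2KO. No libraries overlapped (log2 change of -0.93 ± 0.13 SE, adjusted p of 0.00211). Pecam1, an adhesion protein of progenitors and endothelium, stood at 156, 146 and 144 CPM in Tet2KO and 77.2, 67.5 and 74.04 CPM in the libraries labelled p300KO_Tet2KO, with a narrow spread in each group (log2 change of -1.03 ± 0.09 SE, adjusted p of 0.000148). Itga4, the integrin alpha-4 chain that binds marrow stroma, stood at 522, 538 and 520.1 CPM in Tet2KO and 349, 253 and 354 CPM in the libraries labelled p300KO_Tet2KO (log2 change of -0.73 ± 0.12 SE, adjusted p of 0.00457). Alcam, an adhesion protein, and S1pr3, a receptor of sphingosine-1-phosphate, fell, with changes of -1.10 (adjusted p of 0.00108) and -1.27 (adjusted p of 0.00227).

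Genes of long-term stem cells changed little as a group. Of 36 tested genes of long-term stem cells, 2 were called lower (5.56%, against 2.89% of all genes) and 1 higher (2.78%, against 1.01%). Their median log2 change was 0.07, and none of the 3 was called in all fits without a library. Procr, Hlf and Mecom, which mark long-term stem cells, had changes of 0.06 (adjusted p of 0.943), 0.37 (adjusted p of 0.335) and 0.08 (adjusted p of 0.839). Of 40 stem and progenitor transcription factors, 6 were called lower and 2 higher (median -0.09). Gfi1, a repressor that guards stem cell quiescence and neutrophil fate, stood at 34.7, 28.9 and 32.03 CPM in Tet2KO and 13.2, 17.7 and 18.4 CPM in the libraries labelled p300KO_Tet2KO, all 3 lower (log2 change of -0.95 ± 0.13 SE, adjusted p of 0.00149). Pbx3, a cofactor of Hox proteins, stood at 12.4, 11.2 and 11.2 CPM in Tet2KO and 24.2, 18.7 and 24.97 CPM in the libraries labelled p300KO_Tet2KO and was higher in all 3 libraries (log2 change of 0.96 ± 0.13 SE, adjusted p of 0.00162). Myb, a factor of progenitor growth, stood at 727, 716 and 824 CPM in Tet2KO and 1008, 973 and 1051 CPM in the libraries labelled p300KO_Tet2KO. The 3 libraries labelled p300KO_Tet2KO were higher (log2 change of 0.42 ± 0.10 SE, adjusted p of 0.0385), but the call held only in the fit without Tet2KO replicate 3 among the 6, and the adjusted p reached 0.141 in the others. Of 16 Hox genes tested, 0 were called by edgeR, DESeq2 or limma-voom and 0 had an unadjusted p under 0.05, and Hoxa9 had a change of 0.06 (adjusted p of 0.899). Meis1, its partner, had 0.30 (adjusted p of 0.282).

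Of 42 tested genes that recur in myeloid leukemia, 5 were called, with a median of -0.03. Of these, 4 were lower (9.52%, against 2.89% of all genes) and 1 higher (2.38%, against 1.01%). Bcl2, which blocks mitochondrial apoptosis, stood at 216, 219.9 and 272 CPM in Tet2KO and 107, 86.1 and 95.2 CPM in the libraries labelled p300KO_Tet2KO. The groups were well apart (log2 change of -1.30 ± 0.12 SE, adjusted p of 0.000133). Cdk6, a cyclin-dependent kinase that sets the exit of stem cells from quiescence, stood at 1964, 2171 and 2081 CPM in Tet2KO and 1268, 1011 and 1089 CPM in the libraries labelled p300KO_Tet2KO (log2 change of -0.88 ± 0.12 SE, adjusted p of 0.00182). Mn1, a cofactor that causes leukemia when overexpressed, stood at 88.6, 77.9 and 28.7 CPM in Tet2KO and 12.6, 22.98 and 17.2 CPM in the libraries labelled p300KO_Tet2KO (log2 change of -1.88 ± 0.34 SE, adjusted p of 0.00884). Of 29 genes of the Bcl-2 and apoptosis list, Bcl2 and the death ligand Tnfsf10 (change of -0.60 at an adjusted p of 0.00753) were called lower (6.90%) and 0 higher.

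Myeloid genes were lower in part, with wide spread among the Tet2KO libraries. Of 38 granulocyte and monocyte genes tested, 9 were called lower (23.7%) and 0 higher, with a median of -0.72, but 3 of the 9 were called in all fits without a library. Plac8, a small protein of myeloid progenitors, stood at 551, 516 and 889.6 CPM in Tet2KO and 242, 251 and 342 CPM in the libraries labelled p300KO_Tet2KO. The groups did not overlap (log2 change of -1.23 ± 0.21 SE, adjusted p of 0.00641), and Tet2KO replicate 3 was the highest. Ly86, the MD-1 protein of pathogen sensing, stood at 11.1, 9.87 and 19.8 CPM in Tet2KO and 3.19, 1.67 and 4.78 CPM in the libraries labelled p300KO_Tet2KO (log2 change of -2.10 ± 0.36 SE, adjusted p of 0.00583). Irf8, the factor of monocyte and dendritic cell fate, stood at 223, 155 and 351 CPM in Tet2KO and 90.9, 93.3 and 109.6 CPM in the libraries labelled p300KO_Tet2KO. Its call (log2 change of -1.31, adjusted p of 0.0134) was lost without p300KO_Tet2KO replicate 1 or 2, with an adjusted p of up to 0.0575. The coagulation factor gene F13a1, a monocyte marker, stood at 144, 74.2 and 271 CPM in Tet2KO and 41.2, 17.8 and 34.2 CPM in the libraries labelled p300KO_Tet2KO, and its call (log2 change of -2.40, adjusted p of 0.0210) was lost without Tet2KO replicate 3 or p300KO_Tet2KO replicate 2 or 3, with an adjusted p of up to 0.0816. The granule genes Mpo, Elane and Ctsg were not called, at -0.66 (adjusted p of 0.234), -0.996 (adjusted p of 0.384) and -0.99 (adjusted p of 0.173), and neither was Cebpa, the factor of granulocyte fate (-0.16 at an adjusted p of 0.749) or Spi1, which encodes PU.1 (-0.09 at an adjusted p of 0.712). The list's median was 0.32 in p300KO against WT, where 3 of its genes were called higher and 0 lower, and the difference between the 2 medians was not tested.

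Other lineages gave fewer calls. Dendritic cell, mast cell and basophil genes had 5 called lower of 24 (20.8%), with a median of -0.75, and 2 of these were called in all fits without a library. These were Mcpt8, a basophil protease (-1.98 at an adjusted p of 0.00960), and Cox6a2, a cytochrome oxidase subunit (-3.08 at an adjusted p of 0.00222). Megakaryocyte and erythroid genes had 2 called lower (6.45%, against 2.89% of all genes) and 1 higher (3.23%, against 1.01%) of 31, with a median of -0.35. Slc14a1, a urea transporter of red cells, fell, with a change of -0.94 (adjusted p of 0.00975), and Gata1 and Klf1, the erythroid factors, were not called (-0.72 at an adjusted p of 0.399 and -0.77 at an adjusted p of 0.584).

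The 52 tested interferon-responsive genes all had negative changes, with a median of -0.53, but 7 were called lower (13.5%) and 0 of these 7 in all fits without a library. Mx1, an antiviral GTPase, stood at 4.40, 4.62 and 14.9 CPM in Tet2KO and 1.78, 1.57 and 1.88 CPM in the libraries labelled p300KO_Tet2KO. Tet2KO replicate 3 was far above the other 2 libraries of its group, and the call (log2 change of -2.18, adjusted p of 0.0178) was lost when any of the 3 libraries labelled p300KO_Tet2KO was left out, with an adjusted p of up to 0.0734. None of the 7 was called without Tet2KO replicate 1 and p300KO_Tet2KO replicate 2. Isg15 was not called (-0.91 at an adjusted p of 0.365). Among the guanylate-binding proteins, 4 of 11 were called lower (36.4%, against 2.89% of all genes). These paralogs lie in a cluster and share sequence, so the split of reads among them is uncertain. Gbp10 stood at 4.46, 2.32 and 2.13 CPM in Tet2KO and 0.104, 0.295 and 0.368 CPM in the libraries labelled p300KO_Tet2KO, with Tet2KO replicate 1 the highest (log2 change of -3.46 ± 0.56 SE, adjusted p of 0.00478). Of 12 genes of MHC class II presentation 0 were called by edgeR or limma-voom and 2 by DESeq2, with 4 at an unadjusted p under 0.05 and a median of -0.40, and Cd74, the invariant chain, had a change of 0.07 (adjusted p of 0.955).

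Of 36 genes of MAP kinase feedback and immediate-early response, 2 were called lower (5.56%, against 2.89% of all genes) and 0 higher, with a median of -0.28. Dusp5, a nuclear phosphatase of ERK, stood at 90.9, 71.9 and 26.4 CPM in Tet2KO and 12.6, 15.2 and 12.99 CPM in the libraries labelled p300KO_Tet2KO, with Tet2KO replicate 3 lowest of its group (log2 change of -2.21 ± 0.35 SE, adjusted p of 0.00378). Dusp6, its cytoplasmic relative, fell, with a change of -0.76 (adjusted p of 0.00695). These were the 2 called genes, and Fos and Egr1 were not called (-0.81 at an adjusted p of 0.351 and -0.07 at an adjusted p of 0.947). The cell cycle inhibitor Cdkn1a, or p21, stood at 45.5, 30.7 and 38.5 CPM in Tet2KO and 2.98, 9.75 and 8.46 CPM in the libraries labelled p300KO_Tet2KO. It was low in all 3 libraries labelled p300KO_Tet2KO (log2 change of -2.40 ± 0.38 SE, adjusted p of 0.00382). The p53 list held 2 lower and 2 higher genes of 30 (6.67% each, against 2.89% and 1.01% of all genes). Mdm2 and Ccng1, common p53 targets, had changes of -0.02 (adjusted p of 0.942) and 0.14 (adjusted p of 0.601). The Notch list held 1 called gene of 30, Notch1 itself (3.33%, near the share of all genes), with a median of -0.15. Egln3, a prolyl hydroxylase of hypoxia-inducible factor, fell, with a change of -1.25 (adjusted p of 0.000133).

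Of 44 phosphoinositide kinase and phosphatase genes, 5 were called lower (11.4%, against 2.89% of all genes) and 1 higher (2.27%, against 1.01%), with a median of -0.10. Pik3r1, the regulatory p85 subunit of phosphoinositide 3-kinase, and Synj2, an inositol phosphatase, fell, with changes of -0.55 (adjusted p of 0.00709) and -0.61 (adjusted p of 0.00430), while Inppl1, the SHIP2 phosphatase, stood at 13.96, 11.4 and 11.96 CPM in Tet2KO and 31.9, 31.5 and 29.3 CPM in the libraries labelled p300KO_Tet2KO. It was more than 2-fold higher in every library than the mean of Tet2KO (log2 change of 1.31 ± 0.13 SE, adjusted p of 0.000261). In the fit without Tet2KO replicate 1 and p300KO_Tet2KO replicate 2, 1 of the 5 lower genes and the higher gene were called. Actin genes held 5 lower (10.0%) and 1 higher (2.00%) of 50, with a median of -0.08. Marcks, a membrane and actin linker, stood at 33.1, 44.03 and 24.9 CPM in Tet2KO and 6.68, 10.7 and 9.97 CPM in the libraries labelled p300KO_Tet2KO (log2 change of -1.89 ± 0.21 SE, adjusted p of 0.000565). Scin, which severs actin filaments, stood at 6.52, 10.9 and 20.9 CPM in Tet2KO and 0.940, 2.13 and 1.35 CPM in the libraries labelled p300KO_Tet2KO (log2 change of -3.06 ± 0.46 SE, adjusted p of 0.00274). Pls3, a plastin that bundles actin, was higher, at 9.22, 9.04 and 7.18 CPM in Tet2KO and 15.5, 15.3 and 16.8 CPM in the libraries labelled p300KO_Tet2KO (log2 change of 0.90 ± 0.16 SE, adjusted p of 0.00908).

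Genes outside these lists fell too. Kcng1, a potassium channel subunit, stood at 40.2, 44.7 and 31.1 CPM in Tet2KO and 4.28, 4.17 and 3.76 CPM in the libraries labelled p300KO_Tet2KO. The spread within each group was small against the fall (log2 change of -3.25 ± 0.20 SE, adjusted p of 7.15e-06). Fgf3, a fibroblast growth factor, stood at 22.1, 23.4 and 22.4 CPM in Tet2KO and 2.35, 3.10 and 2.53 CPM in the libraries labelled p300KO_Tet2KO (log2 change of -3.07 ± 0.24 SE, adjusted p of 5.99e-05). Dscam, a cell adhesion protein best known from neurons, stood at 7.98, 8.60 and 4.21 CPM in Tet2KO and 0.261, 0.635 and 0.572 CPM in the libraries labelled p300KO_Tet2KO (log2 change of -3.75 ± 0.43 SE, adjusted p of 0.000572). Each of these had all 3 libraries labelled p300KO_Tet2KO below all 3 of Tet2KO, which was a condition for naming genes outside the lists. Cmah, which hydroxylates sialic acid in mice, stood at 126, 104 and 48.4 CPM in Tet2KO and 10.4, 13.8 and 18.7 CPM in the libraries labelled p300KO_Tet2KO (log2 change of -2.70 ± 0.36 SE, adjusted p of 0.00131). Chdh, choline dehydrogenase, stood at 48.02, 45.995 and 58.9 CPM in Tet2KO and 9.50, 11.3 and 13.4 CPM in the libraries labelled p300KO_Tet2KO (log2 change of -2.16 ± 0.18 SE, adjusted p of 8.42e-05). Xylt1, a xylosyltransferase of proteoglycan synthesis, stood at 34.8, 33.9 and 33.9 CPM in Tet2KO and 14.4, 14.9 and 14.02 CPM in the libraries labelled p300KO_Tet2KO. It had almost no spread (log2 change of -1.24 ± 0.11 SE, adjusted p of 8.42e-05). Apoe, a lipid carrier of the cholesterol list, stood at 94.4, 102 and 121 CPM in Tet2KO and 42.4, 50.6 and 38.5 CPM in the libraries labelled p300KO_Tet2KO (log2 change of -1.26 ± 0.18 SE, adjusted p of 0.00206), whereas in p300KO against WT its change was -0.16 (adjusted p of 0.727).

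The risen genes were of mixed function. Evc, a component of hedgehog signalling at the cilium, stood at 1.68, 1.07 and 1.11 CPM in Tet2KO and 7.10, 4.24 and 5.80 CPM in the libraries labelled p300KO_Tet2KO. All 3 libraries were higher (log2 change of 2.13 ± 0.34 SE, adjusted p of 0.00405). Perp, a membrane protein of desmosomes and a p53 target, stood at 1.52, 1.47 and 2.13 CPM in Tet2KO and 6.47, 5.30 and 5.11 CPM in the libraries labelled p300KO_Tet2KO (log2 change of 1.73 ± 0.21 SE, adjusted p of 0.000744), and its neighbour Arfgef3, related to exchange factors of ARF proteins, at 5.12, 4.01 and 6.51 CPM in Tet2KO and 17.6, 9.82 and 16.1 CPM in the libraries labelled p300KO_Tet2KO (log2 change of 1.48 ± 0.25 SE, adjusted p of 0.00581). Neither gene overlapped between groups. Shtn1, shootin-1 of neuronal polarity, stood at 3.93, 4.51 and 3.32 CPM in Tet2KO and 9.66, 11.8 and 10.2 CPM in the libraries labelled p300KO_Tet2KO (log2 change of 1.42 ± 0.21 SE, adjusted p of 0.00243). Cyp27a1, the mitochondrial sterol 27-hydroxylase, stood at 6.13, 2.93 and 3.99 CPM in Tet2KO and 8.88, 13.4 and 12.7 CPM in the libraries labelled p300KO_Tet2KO (log2 change of 1.42 ± 0.27 SE, adjusted p of 0.0102). In the cholesterol list it and Apoe were the 2 called of 34. That is 2.94% lower, near the 2.89% of all genes, and 2.94% higher, against 1.01%. Slc6a15, a transporter of neutral amino acids, stood at 8.39, 5.80 and 7.22 CPM in Tet2KO and 17.02, 16.5 and 16.3 CPM in the libraries labelled p300KO_Tet2KO (log2 change of 1.22 ± 0.19 SE, adjusted p of 0.00319). Krt80, a keratin, stood at 4.14, 3.59 and 3.77 CPM in Tet2KO and 7.94, 9.79 and 8.66 CPM in the libraries labelled p300KO_Tet2KO (log2 change of 1.20 ± 0.19 SE, adjusted p of 0.00388). In each of these genes the groups did not overlap, which was a condition for naming genes outside the lists. A histone variant pair parted. H2afy2, the macroH2A2 gene, stood at 4.27, 5.60 and 3.77 CPM in Tet2KO and 13.6, 9.63 and 8.58 CPM in the libraries labelled p300KO_Tet2KO, higher in all 3 libraries (log2 change of 1.21 ± 0.24 SE, adjusted p of 0.0135), a call lost without replicate 1 of either group, where the adjusted p reached 0.0586. H2afy, the macroH2A1 gene, stood at 1479.8, 1576 and 1425 CPM in Tet2KO and 1159, 1042 and 1018 CPM in the libraries labelled p300KO_Tet2KO, lower in all 3 (log2 change of -0.48 ± 0.11 SE, adjusted p of 0.0307), a call lost without Tet2KO replicate 1 or 2 or p300KO_Tet2KO replicate 2 or 3, where the adjusted p reached 0.111.

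Lists of growth and housekeeping held few or no calls. Of 52 genes of replication and mitosis and 39 of Myc targets and ribosome production, 0 were called by edgeR or limma-voom, with medians of 0.11 and 0.13 against 0.02 for all genes. An unadjusted p under 0.05 was found for 2 genes of each, and DESeq2 called 1 and 0. Mki67 and Top2a, which mark dividing cells, had changes of -0.08 (adjusted p of 0.875) and -0.04 (adjusted p of 0.942), and Myc one of -0.02 (adjusted p of 0.978). Of 46 DNA repair genes 1 was called lower (2.17%, against 2.89% of all genes). Most members of these lists had small positive changes, with negative ones in 4 of the 39 Myc and ribosome production genes, 9 of the 46 DNA repair genes and 19 of the 52 replication and mitosis genes, against 8317 of all 17842 genes. None of 83 ribosomal protein genes, 39 proteasome genes or 44 complex I genes was called by edgeR, with 1, 1 and 2 at an unadjusted p under 0.05, and DESeq2 and limma-voom called 1 ribosomal protein gene each and 0 of the others. Their changes were negative for 26 of 83, 3 of 39 and 5 of 44 genes. Of 36 genes of p300 partners and other coactivators, Ep300 was called lower and Tet2 higher (2.78% each, against 2.89% and 1.01% of all genes). Of 29 acetyltransferase and deacetylase genes Ep300 and Hdac9 were called lower (6.90%) and Hdac6 higher (3.45%). Hdac6 was without a call in the fits that left out Tet2KO replicate 2 or p300KO_Tet2KO replicate 2, where the adjusted p reached 0.0694.

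**Figure D4:**
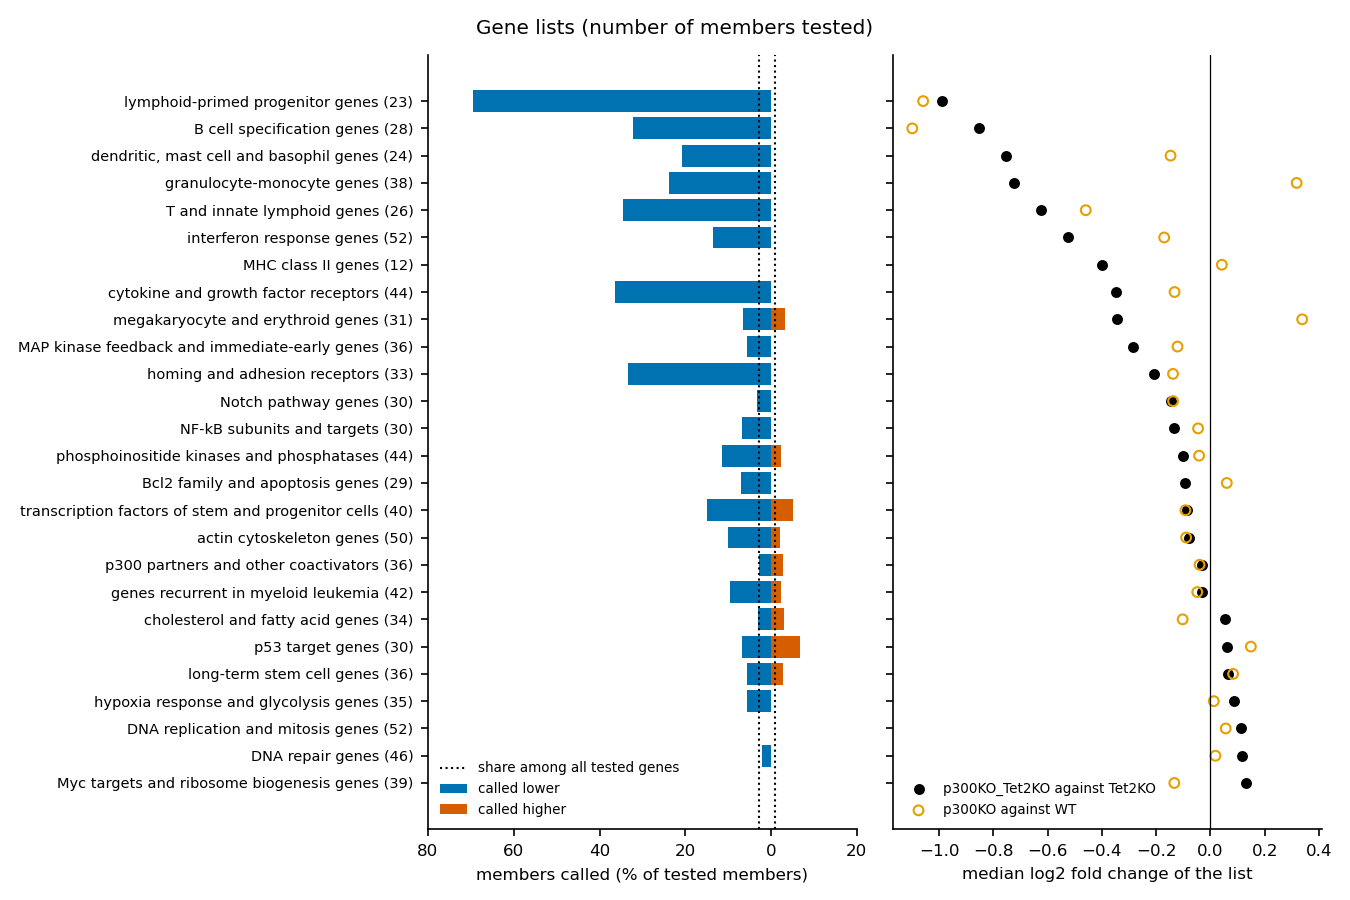
Share of each gene list called lower or higher in the libraries labelled p300KO_Tet2KO over Tet2KO, and the list's median log2 change, with the values over all genes tested marked. The lymphoid-primed list stands highest for lower genes at 69.6%, against 2.89% of all genes. The lists were chosen with earlier results of these data known.

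The same label contrast was available in mice with Tet2. In p300KO against WT, which shares no library with the first comparison but differs in Mx1-Cre in the same way, 698 genes were called (3.91%), 509 lower (2.85%) and 189 higher (1.06%). Xist was high in p300KO replicate 3 and in no WT library, so sex was not alike in these groups. Of the 515 genes lower in p300KO_Tet2KO against Tet2KO, 493 (95.7%) also had a negative change there, 269 were called lower and 0 higher, and their median was -0.70. Over all genes 47.6% were negative and the median was 0.01. Of the 180 higher genes, 168 (93.3%) had a positive change, 53 were called higher and 0 lower, with a median of 0.49. Il7r had a change of -3.18 (adjusted p of 5.84e-05) there, Dntt -2.61 (adjusted p of 0.00482), Cnn3 -2.33 (adjusted p of 5.84e-05) and Ets1 -1.39 (adjusted p of 0.000128). Pbx3, Perp and Inppl1 rose there too, by 0.98 (adjusted p of 0.00179), 1.64 (adjusted p of 0.00166) and 1.21 (adjusted p of 0.000485). Myb had a change of 0.59 (adjusted p of 0.00761) in p300KO against WT. Of the lists, the lymphoid-primed genes had a median of -1.06 with 16 called lower in p300KO against WT, and the B cell list -1.10 with 15. The 698 calls went to 244 without WT replicate 1, 264 without WT replicate 2, and 360, 397 and 322 without p300KO replicates 1, 2 and 3.

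Some genes were called in p300KO_Tet2KO against Tet2KO and not in p300KO against WT. Lifr had a change of -0.17 (adjusted p of 0.806) in the latter, Gfi1 -0.12 (adjusted p of 0.710), Il6ra 0.06 (adjusted p of 0.868) and Plac8 -0.32 (adjusted p of 0.511). Another was Cd69, an early activation marker, which changed by -1.55 (adjusted p of 0.00753) in the former and by -0.33 (adjusted p of 0.607) in the latter. A call in one and not in the other does not show a difference, and the interaction was therefore fitted for every gene. It gave 0 called genes in edgeR, with a smallest adjusted p of 0.384 and 1268 genes at an unadjusted p under 0.05, while a DESeq2 Wald test called 49 and limma-voom 0. Without WT replicate 3 edgeR called 14, and without Tet2KO replicate 2 it called 1. The smallest p belonged to Pld4, a phospholipase D family member of dendritic cells and endosomes, which stood at 27.8, 34.9 and 34.9 CPM in Tet2KO and 11.2, 12.6 and 14.7 CPM in the libraries labelled p300KO_Tet2KO and at 10.4, 11.1 and 13.998 CPM in WT and 12.2, 12.8 and 18.7 CPM in p300KO. It was high in the 3 Tet2KO libraries alone, with an interaction of -1.64 ± 0.26 (SE, unadjusted p of 2.88e-05, adjusted p of 0.384). The chemokine gene Ccl9 had the same form, at 118, 67.8 and 97.9 CPM in Tet2KO and 43.7, 41.9 and 45.6 CPM in the libraries labelled p300KO_Tet2KO, 55.5, 54.3 and 64.2 CPM in WT and 61.2, 65.6 and 76.7 CPM in p300KO, with an interaction of -1.34 ± 0.23 (SE, unadjusted p of 6.63e-05, adjusted p of 0.384). Tet2 itself was the eighth of these genes, with an interaction of 1.08 ± 0.22 (SE, unadjusted p of 0.000316, adjusted p of 0.491).

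**Figure D5:**
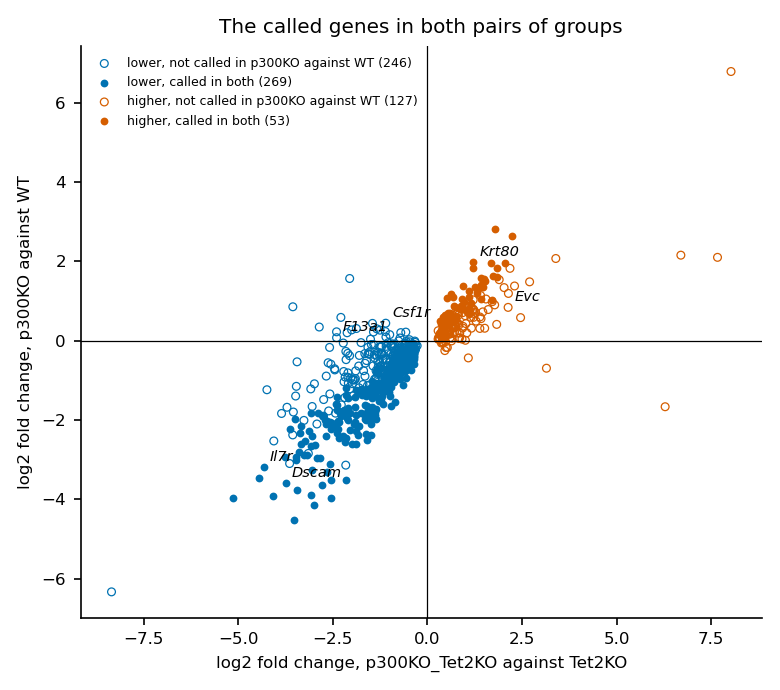
Log2 change in p300KO over WT (vertical axis) against that in the libraries labelled p300KO_Tet2KO over Tet2KO (horizontal axis) for the genes called in the latter, which chose the points. Of the 515 lower genes 493 lie below 0 on the vertical axis, and of the 180 higher genes 168 lie above it.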

How the data were processed

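RNA was measured in 12 libraries of sorted mouse LSK cells, 3 in each of 4 groups taken from the labels, which the study's methods describe as independent biological replicates. The deposited table holds RSEM expected counts per gene, not normalized. Per the labels the authors used STAR 2.6.0c and RSEM 1.3.0 on mm10, and the release of the Gencode annotation is not given in the sources used here. The libraries came from ribosomal RNA-depleted RNA read as 100 bp pairs. The authors' own tests used spike-in RNA, but of these transcripts 0 are in the table, and scaling rested on genes alone.

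Expected counts were rounded and fitted over all 12 libraries with edgeR 4.0.16 (R 4.3.3), using filterByExpr, TMM and quasi-likelihood tests with 1 mean per group. All tests were two-sided, with Benjamini-Hochberg adjustment over the 17842 genes tested and a threshold of 0.05. A common biological coefficient of variation of 0.203 was estimated. The standard error is the log2 change divided by the square root of F. For 1 gene alone, permuting 3 libraries against 3 exactly could reach p = 0.10 at the lowest. Depth ran from 18773903 to 79573664 counts per library, which limits genes of few counts most in the shallow libraries. The models were tested on simulated data.

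The comparison, the gene lists and the rule for named genes were chosen with earlier results of these data known. Named genes were Ep300, Crebbp, Tet2, Myb, Dntt and Notch1, and, among called genes of at least 3 CPM with groups that do not overlap and a standard gene name, the 20 lowest and 20 highest changes, the 10 smallest p-values and the 10 highest CPM in each direction. Called members of the lists and symbol families, up to 4 uncalled members of each as examples and the interaction's 10 smallest p-values were added. Genes outside it are marked as picked after their values were seen. Uncalled examples were Pax5, Gata3, Procr, Hlf, Mecom, Hoxa9, Meis1, Kit, Csf3r, Mpo, Elane, Ctsg, Cebpa, Spi1 and others of their lists. Some genes belong to several lists, and some members are not reported here.

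Alternatives were limma-voom (limma 3.58.1), the Wald test of DESeq2 1.42.0, its size factors, no filter, 1 CPM in 3 libraries, the compared libraries alone, a replicate block, a sex-linked covariate (log2 of Xist CPM + 1), and leaving out each library. A fit without Tet2KO replicate 1 and p300KO_Tet2KO replicate 2 was added after seeing the data. Coordinates come from Gencode vM21 on mm10, which matched 17743 of the tested genes. Sequences come from RefSeq (GRCm38.p6). Plots used matplotlib 3.10.9 under Python 3.11.15.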

Additional observations from a re-analysis of the deposited data

How the results depend on the processing

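The lead of lower over higher calls and the direction of the called genes named for p300KO_Tet2KO against Tet2KO held under the alternatives run, while the number of calls did not. The 695 calls became 1252 with the DESeq2 Wald test (390 higher, 862 lower) and 345 with the 6 compared libraries alone (61 higher, 284 lower). Leaving out 1 library gave 387 to 767 calls (55 to 144 higher, 296 to 623 lower), and leaving out Tet2KO replicate 1 and p300KO_Tet2KO replicate 2 gave 235 (49 higher, 186 lower), of which 221 were among the 695. DESeq2 size factors gave 697, limma-voom 815, testing without a filter 788, requiring 1 CPM in 3 libraries 685 and the sex-linked covariate 792. The cause of these differences was not tested, other than that fits with fewer libraries have less power by construction. For p300KO against WT the 698 calls became 1219 with the DESeq2 Wald test and 244 to 651 without 1 library. For Tet2KO against WT the 113 calls became 497 with the DESeq2 Wald test, 170 with limma-voom, 227 with no filter, 43 with the sex-linked covariate, 58 with the compared libraries alone and 36 to 205 without 1 library. For p300KO_Tet2KO against p300KO the 100 calls became 351 with the DESeq2 Wald test, 155 with no filter and 39 to 116 without 1 library. The interaction's 0 calls became 49 with the DESeq2 Wald test, 2 with no filter and 0 to 14 without 1 library. Of the values of single genes, 1874 kept their direction and side of the threshold, 479 lost their call and 2 turned. Both were of Crebbp, never called, whose change of -0.08 ran from -0.16 to 0.0039 without 1 library (the latter without p300KO_Tet2KO replicate 2) and was 0.040 without that library and Tet2KO replicate 1.

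The replicate numbers were not taken as pairs, since same-numbered Tet2KO and p300KO_Tet2KO libraries had correlations of -0.08, 0.08 and 0.13 between their deviations from the group means, and not every library correlated best with its own number. A replicate block gave 597 calls, 550 of them among the 695, and 2 for the interaction. Shallow libraries limit genes of few counts, and with 3 libraries a group a missed call does not show that levels were alike.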

Other observations

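Immunoglobulin genes, looked at after their values were seen, differed in both directions between the groups, and few passed the test. Igkc, the kappa constant region, stood at 228, 55.7 and 293 CPM in Tet2KO and 376, 828 and 878 CPM in the libraries labelled p300KO_Tet2KO, and Jchain, which joins secreted antibody polymers, at 90.2, 21.5 and 65.3 CPM in Tet2KO and 110.3, 287 and 369 CPM in the libraries labelled p300KO_Tet2KO. The p300KO_Tet2KO libraries were higher for both, but with a spread that left them uncalled in edgeR (log2 changes of 1.86 at an adjusted p of 0.229 and 2.12 at an adjusted p of 0.107). Ighm, the mu heavy chain, stood at 775, 350.4 and 941 CPM in Tet2KO and 685, 1971 and 2041 CPM in the libraries labelled p300KO_Tet2KO, and its groups overlapped (1.18 at an adjusted p of 0.300). Of 37 tested kappa variable segments, 3 were called higher, against 1.01% of all genes. Their counts lay in replicates 1 and 3 labelled p300KO_Tet2KO or in replicate 3 alone. Igkv5-48 stood at 0.536, 0 and 1.11 CPM in Tet2KO and 44.4, 0.901 and 100.4 CPM in the libraries labelled p300KO_Tet2KO. The 3 kappa calls were lost without any of the Tet2KO libraries and without p300KO_Tet2KO replicate 3, with an adjusted p of up to 0.134 for Igkv3-2. Of 41 tested heavy chain variable segments, 4 were called lower (against 2.89% of all genes) and 0 higher, while 27 of the 41 had a positive change. Among them Ighv1-23 stood at 2.42, 2.93 and 0.930 CPM in Tet2KO and 0.470, 0.236 and 0.695 CPM in the libraries labelled p300KO_Tet2KO (log2 change of -2.28 ± 0.47 SE, adjusted p of 0.0192), and its call was lost without replicate 1 or 2 of either group, where the adjusted p reached 0.0786. The surrogate light chain genes of early B cells, Vpreb1 and Igll1, had changes of -1.46 (adjusted p of 0.214) and -1.22 (adjusted p of 0.540). The plasma cell genes Prdm1, Sdc1, Mzb1 and Xbp1 were not called (1.10 at an adjusted p of 0.203, -0.76 at an adjusted p of 0.200, 1.21 at an adjusted p of 0.410 and -0.11 at an adjusted p of 0.842), and Sdc1 and Xbp1 had negative changes. Trbc1, a constant region of the T cell receptor, stood at 2.98, 3.66 and 3.50 CPM in Tet2KO and 0.679, 0.753 and 0.572 CPM in the libraries labelled p300KO_Tet2KO, with no overlap (log2 change of -2.31 ± 0.28 SE, adjusted p of 0.000652).

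Across symbol families, solute carriers had 13 called lower (5.12%, against 2.89% of all genes) and 4 higher (1.57%, against 1.01%) of 254. Their median was 0.02, equal to that of all genes. Chemokines and their receptors had 4 lower of 32 (12.5%) with a median of -0.83, and genes with a CD antigen symbol 14 lower (21.5%) and 2 higher (3.08%) of 65. Zinc finger genes of the Zfp series had 3 higher (0.880%) and 1 lower (0.293%) of 341. Of the 575 X-linked genes tested, 16 were called higher (2.78%, against 1.01% of all genes) and 11 lower (1.91%, against 2.89%). Xist was high in 2 of the 3 p300KO_Tet2KO libraries and in Tet2KO replicate 3, with both Xist and Y-linked RNA in Tet2KO replicate 1. With the sex-linked covariate all 16 and all 11 stayed called, while without Tet2KO replicate 1 and p300KO_Tet2KO replicate 2 4 of the 16 and 5 of the 11 did.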
